A study of Mus musculus with 6 samples.

Results

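Iron handling in macrophages was examined through 10 genes whose products take up, reduce, store, export or sense iron, or bind it outside the cell. They were *Lcn2*, *Fth1*, *Ftl1*, *Tfrc*, *Slc40a1*, *Slc11a1*, *Slc11a2*, *Slc39a14*, *Ireb2* and *Steap3*. The genes were taken by symbol from the table of 24786 gene symbols, and all 10 were found. The samples were 6 polyA RNA libraries of Raw264.7 cells, a macrophage line that grew from a mouse tumor induced with Abelson leukemia virus. Of these, 3 carried a control shRNA (sh-NC, genotype label control) and 3 carried an shRNA against *Etv5* (sh-*Etv5*, genotype label *Etv5* knockdown), both brought in with lentivirus. The labels give 24 or 48 h after infection for both groups, name Lipofectamine, and list the strain as C57BL/6 and the age as postnatal day 21. The paper describes the sequenced cells as stably carrying the shRNA and its methods use puromycin to select infected cells, so it is uncertain if the labelled hours apply to these libraries. The labelled strain and age describe an animal, whereas these cells are a purchased line, so those labels may not apply to them either. All cells were of 1 line. The sources do not state which *Etv5* shRNA the sequenced cells carried, or if each library was a separate infection. The p-values therefore measure the spread between these libraries, which may be technical. The comparison asked how the transcripts of iron retention and of iron export stood to each other in the sh-*Etv5* and the sh-NC cells.

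As background, macrophages take up transferrin-bound iron through the transferrin receptor, and they recover a larger amount from engulfed red cells, whose heme is opened by heme oxygenase. Iron that enters an endosome is reduced and then carried into the cytosol. There it is stored inside shells of ferritin heavy and light chains or leaves the cell through ferroportin, the only known iron exporter of mammals. Ferritin, ferroportin and transferrin receptor are also set after transcription. Iron regulatory proteins bind a hairpin called the iron-responsive element (IRE) when iron is scarce, which blocks translation if the hairpin lies in a 5′ untranslated region and protects the transcript if it lies in a 3′ untranslated region. Inflamed macrophages are known to hold iron back from microbes, and lipocalin-2 adds to this by binding the siderophores with which bacteria collect iron.

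The hairpins are shown because they divide the genes by a feature that transcript levels alone do not report. The untranslated regions of the annotated coding transcripts (GRCm38, GENCODE release M21) were searched for an unpaired C, a stem of 5 base pairs and a loop of 6 letters that reads CAGTGN, where N is any base. Each line gives 30 bases of DNA, 5′ to 3′ on the strand of the gene, with the loop in capitals. *Fth1* and *Ftl1*, the ferritin chains, and *Slc40a1*, ferroportin, each held 1 match in the 5′ untranslated region, and *Tfrc*, transferrin receptor, held 4 in the 3′ untranslated region.
Fth1, chr19:9982732-9982761, plus strand: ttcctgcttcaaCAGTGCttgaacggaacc
Ftl1, chr7:45459778-45459807, minus strand: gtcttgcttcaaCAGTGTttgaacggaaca
Slc40a1, chr1:45925464-45925493, minus strand: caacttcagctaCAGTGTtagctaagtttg
Tfrc-1, chr16:32631219-32631248, plus strand: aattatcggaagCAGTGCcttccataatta
Tfrc-2, chr16:32631598-32631627, plus strand: cattatcgggagCAGTGTcttccataatgc
Tfrc-3, chr16:32631663-32631692, plus strand: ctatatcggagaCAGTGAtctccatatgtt
Tfrc-4, chr16:32631710-32631739, plus strand: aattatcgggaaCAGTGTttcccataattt
Slc11a2, chr15:100395152-100395181, minus strand: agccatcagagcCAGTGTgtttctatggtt

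All 5 stem pairs formed, with a G-T pair allowed, in the elements of *Fth1*, *Ftl1*, *Slc40a1* and *Tfrc*. The element of *Slc11a2*, which encodes the endosomal iron transporter DMT1, formed 4 of 5 pairs and lay in the 3′ untranslated region of 1 annotated transcript. The elements of *Ftl1*, *Slc40a1* and *Tfrc* also lay in 1 annotated transcript of each gene, and that of *Fth1* in 4. The RPKM values are given per gene, so transcripts with and without an element could not be told apart. The remaining 5 genes held no match, which says only that these letters were not found in their annotated untranslated regions. Of 21901 coding genes searched in the same way, 160 (0.731%) held a match with all 5 pairs and 1074 (4.9%) a match with at least 4.

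**Figure D1:**
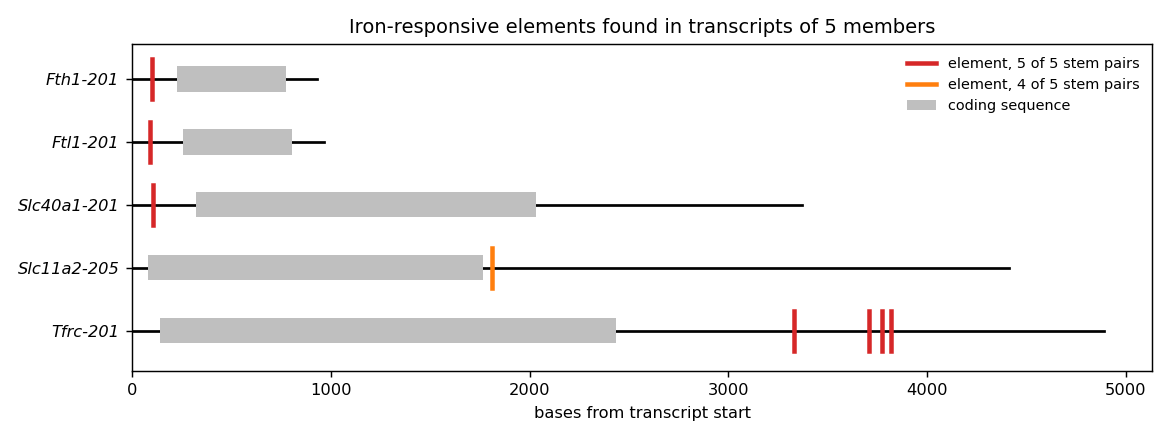
Positions of the IRE matches along 1 transcript of each of the 5 genes that held any, in bases from the transcript start, with the coding sequence drawn as a thick bar. The matches of *Fth1*, *Ftl1* and *Slc40a1* sit before the coding sequence and those of *Tfrc* and *Slc11a2* after it.

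Levels are RPKM (read density over the length of the gene, relative to all mapped reads of the library), which allow comparison between genes but do not give the depth of a library. The RPKM sum per library was 320462 to 322949 in sh-NC and 330454 to 340257 in sh-*Etv5*. *Etv5*, the targeted gene, had 9.18, 9.89 and 9.39 RPKM in sh-NC and 5.19, 4.91 and 5.28 in sh-*Etv5*, and was called lower (log2 fold change -0.78, adjusted p = 2.74e-07). Differences were tested with limma on log2(RPKM + 1) over the 10738 genes with at least 1 RPKM in at least 3 of the 6 libraries. Genes with a Benjamini-Hochberg adjusted p below 0.05 over all of them were called. Log2 fold changes are sh-*Etv5* minus sh-NC on that scale, which understates the change of genes near 0.

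All 10 iron handling genes entered the test, *Lcn2* and *Slc40a1* only through their sh-*Etv5* values. *Lcn2*, *Slc11a1*, *Slc40a1*, *Slc11a2*, *Fth1*, *Ftl1* and *Slc39a14* were higher in sh-*Etv5* cells, *Ireb2* and *Steap3* were lower, and *Tfrc* was not called. Of all tested genes, 33.3% were called higher and 41.0% lower, 74.3% in either direction, so a call by itself was common in these libraries. A called change of at least 1 on the log2 scale was found in 5 of the 10 genes, all of them higher, against 9.23% of tested genes in either direction and 6.23% upward. The median log2 fold change was 0.89 over the 10 genes and -0.05 over all tested genes. The ranges of the groups did not overlap for 9 of the 10 genes, 7 upward and 2 downward, against 76.4% of tested genes, 34.3% upward and 42.1% downward.

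**Figure D2:**
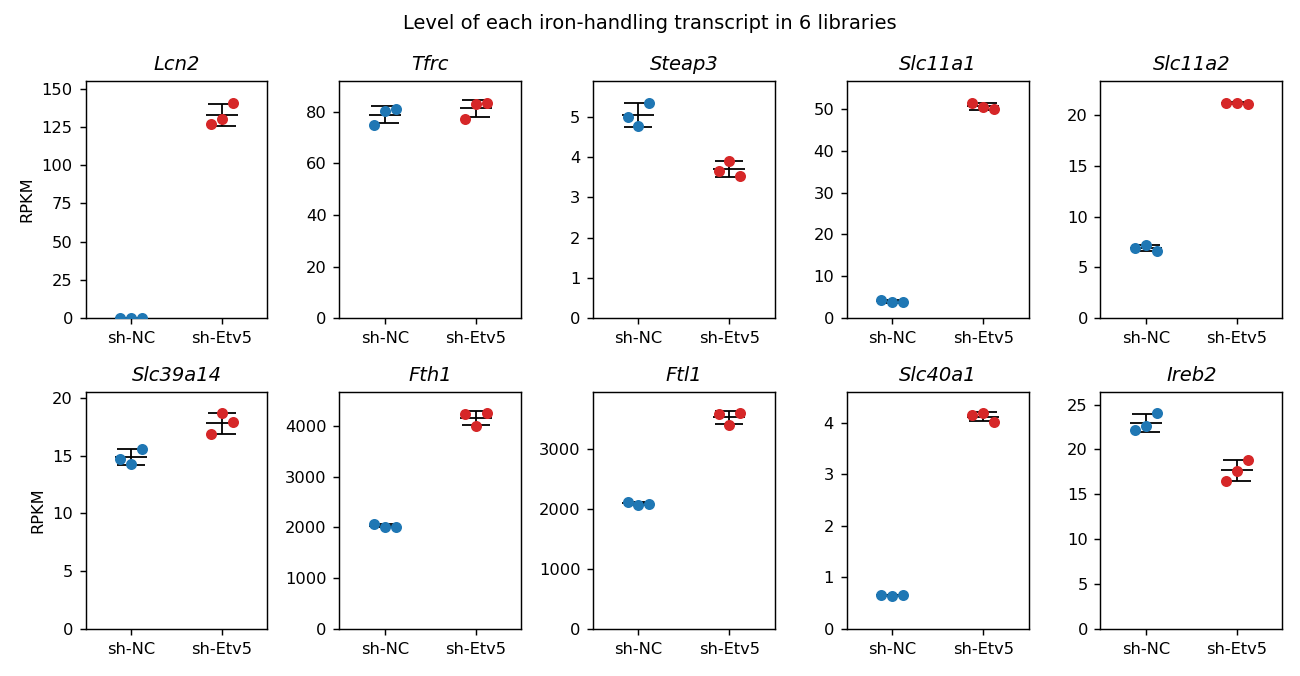
RPKM of each of the 10 iron handling genes in its own panel, on a linear axis from 0, with 1 point per library (blue sh-NC, red sh-*Etv5*) and the mean ± SD in black. The points of the groups lie apart in every panel but that of *Tfrc*, and those of *Lcn2* go from near 0 to between 127.1 and 140.9.

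*Lcn2* encodes lipocalin-2, the secreted protein that binds bacterial siderophores. It lies at chr2:32384633-32388252 on the minus strand. It was at 0.0566 and 0.0556 RPKM in sh-NC replicates 1 and 2 and was listed at 0 in replicate 3, whereas it reached 127.1, 130.1 and 140.9 RPKM in sh-*Etv5*. Transcripts were therefore close to the limit of the table in control cells and abundant in every knockdown library. The log2 fold change was 7.01 (95% confidence interval 6.89 to 7.13, adjusted p = 6.43e-15), the third largest of the 10738 tested genes. No ratio of RPKM is given because a control library was at 0, and the log2 value depends on the pseudocount, being 9.95 with a pseudocount of 0.1 and 11.88 with 0.01. Among all symbols ordered by level within a library, *Lcn2* moved from between rank 13041 and 14742 in sh-NC to between rank 354 and 400 in sh-*Etv5*.

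The ferritin chains were among the most abundant transcripts of both groups and rose further. *Fth1* (chr19:9980598-9985098, plus strand) encodes the heavy chain, which oxidizes iron as it enters the shell. It had 2067, 2014 and 2012 RPKM in sh-NC and 4230, 4001 and 4245 in sh-*Etv5*, a ratio of means of 2.05 (log2 fold change 1.03, 95% interval 0.95 to 1.11, adjusted p = 6.91e-10). *Ftl1* (chr7:45457944-45459884, minus strand) encodes the light chain, which helps the iron core to form. It had 2124, 2075 and 2091 RPKM in sh-NC and 3593, 3411 and 3600 in sh-*Etv5*, a ratio of 1.69 (log2 fold change 0.75, 95% interval 0.68 to 0.83, adjusted p = 6.45e-09). Every knockdown library lay above every control library for both chains. The heavy chain rose more than the light chain, so that the ratio of *Fth1* to *Ftl1* RPKM went from between 0.962 and 0.973 in sh-NC to between 1.17 and 1.18 in sh-*Etv5*.

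Together the ferritin chains took 1.28% to 1.30% of the RPKM sum in sh-NC and 2.24% to 2.33% in sh-*Etv5*. After quantile normalization, which by its construction compresses the values of top-ranked genes, the log2 fold changes were 0.71 for *Fth1* (adjusted p = 1.87e-11) and 0.28 for *Ftl1* (adjusted p = 1.68e-08). *Ftl1* is uncertain for another reason, since it shares sequence with near-identical copies. Of its annotated 50-base stretches, 58.4% occur in other genes as well, mainly *Ftl1-ps1*, *Gm15590* and *Gm10252*, against 1.59% for *Fth1* and 0 for *Lcn2*, *Tfrc*, *Slc40a1* and *Steap3*. *Gm10252* also overlaps *Ftl1* on the opposite strand. *Ftl1-ps1*, *Gm15590* and *Gm10252* were not among the gene symbols with RPKM values, so how their reads were assigned is unknown.

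Of these genes of the uptake route through transferrin, *Tfrc* was not called and *Steap3* was lower. *Tfrc* (chr16:32608920-32632794, plus strand), which encodes the receptor that brings transferrin into the cell, had 75.0, 80.2 and 81.1 RPKM in sh-NC and 77.3, 83.0 and 83.5 in sh-*Etv5*. These ranges overlapped, and the log2 fold change of 0.04 (95% interval -0.05 to 0.14, adjusted p = 0.364) was not called. *Steap3* (chr1:120190757-120272705, minus strand) encodes the reductase that converts ferric to ferrous iron in the endosome. It had 5.00, 4.76 and 5.35 RPKM in sh-NC and 3.67, 3.91 and 3.52 in sh-*Etv5*, lower in all 3 knockdown libraries (log2 fold change -0.36, 95% interval -0.51 to -0.21, adjusted p = 0.000482).

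*Slc11a2* (chr15:100387898-100425072, minus strand), for the transporter DMT1 that passes ferrous iron from endosomes to the cytosol, rose instead. It had 6.87, 7.19 and 6.64 RPKM in sh-NC and 21.2, 21.2 and 21.1 in sh-*Etv5*, a ratio of 3.07 (log2 fold change 1.49, 95% interval 1.38 to 1.59, adjusted p = 3.61e-10). *Gm5475*, which overlaps its exons on the opposite strand, was listed at 0 in all 6 libraries. *Slc39a14* (chr14:70303469-70351425, minus strand) encodes ZIP14, a carrier of iron that is not bound to transferrin. It had 14.8, 14.3 and 15.6 RPKM in sh-NC and 16.9, 18.7 and 17.9 in sh-*Etv5*, a ratio of 1.20 without overlap (log2 fold change 0.24, 95% interval 0.13 to 0.36, adjusted p = 0.00145).

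*Slc11a1* (chr1:74375195-74386062, plus strand) encodes NRAMP1, which moves iron and manganese across the phagosome membrane of macrophages and is known for its part in resistance to intracellular microbes. It had 4.36, 3.92 and 3.80 RPKM in sh-NC and 51.5, 50.4 and 49.9 in sh-*Etv5*. The knockdown libraries lay within a narrow band far above the controls, with a ratio of 12.6 (log2 fold change 3.36, 95% interval 3.25 to 3.48, adjusted p = 9.65e-13), which placed the gene at rank 40 by log2 fold change. Within the Slc11 family the order of the levels was reversed. The ratio of *Slc11a1* to *Slc11a2* RPKM was 0.545 to 0.634 in sh-NC and 2.37 to 2.43 in sh-*Etv5*. Whether this line makes a working NRAMP1 protein was not examined, so these levels give no measure of iron transport.

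*Slc40a1* (chr1:45908068-45926523, minus strand), which encodes the exporter ferroportin, had 0.655, 0.642 and 0.652 RPKM in sh-NC and 4.14, 4.18 and 4.02 in sh-*Etv5*. This was a ratio of 6.33 (log2 fold change 1.63, 95% interval 1.48 to 1.79, adjusted p = 3.53e-09), larger than the ratio of either ferritin chain. It still stayed among the least abundant transcripts of the 10, below all but *Steap3* in the knockdown libraries. Because its control level is under 1 RPKM, the log2 fold change depends on the pseudocount and was 2.49 with 0.1 and 2.64 with 0.01.

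*Ireb2* (chr9:54863789-54912530, plus strand) encodes iron regulatory protein 2, one of the proteins that bind the IRE. It had 22.2, 22.6 and 24.0 RPKM in sh-NC and 16.5, 17.6 and 18.9 in sh-*Etv5*, lower by 23.0% and without overlap (log2 fold change -0.36, 95% interval -0.48 to -0.24, adjusted p = 0.000112). *Aco1*, for iron regulatory protein 1, went from 10.5 ± 0.183 to 11.9 ± 0.837 RPKM (mean ± SD, n = 3 libraries per group, log2 fold change 0.16, limma adjusted p = 0.0238). The ratio of *Aco1* to *Ireb2* RPKM was 0.442 to 0.468 in sh-NC and 0.578 to 0.746 in sh-*Etv5*.

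**Figure D3:**
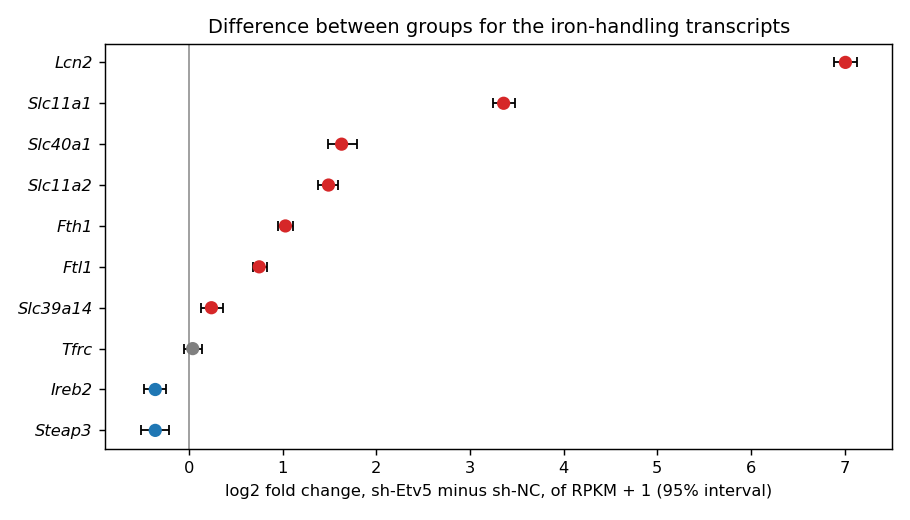
Log2 fold change of each iron handling gene with its 95% interval, on the log2(RPKM + 1) scale. The intervals of 7 genes lie above 0 and those of *Ireb2* and *Steap3* below it, while that of *Tfrc* spans 0.

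The order of the levels changed accordingly. In sh-NC cells it ran from *Ftl1* through *Fth1*, *Tfrc*, *Ireb2*, *Slc39a14*, *Slc11a2*, *Steap3*, *Slc11a1* and *Slc40a1* to *Lcn2*, and no ranges of neighbors overlapped. In sh-*Etv5* cells it ran from *Fth1* through *Ftl1*, *Lcn2*, *Tfrc*, *Slc11a1*, *Slc11a2*, *Slc39a14*, *Ireb2* and *Slc40a1* to *Steap3*, where the ranges of *Slc39a14* and *Ireb2* overlapped and those of the other neighbors did not.

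Set side by side, the transcripts of storage and of export both rose, on different scales. The rise in RPKM was 2128 for *Fth1* and 1438 for *Ftl1*, against 3.46 for *Slc40a1*. Relative to its own control level, however, *Slc40a1* rose by more, and the number of *Slc40a1* RPKM per 1000 *Fth1* RPKM went from 0.320 ± 0.00381 to 0.990 ± 0.0499 (mean ± SD, n = 3 libraries per group). Per 100 *Tfrc* RPKM it went from between 0.800 and 0.873 to between 4.81 and 5.36. *Slc11a1* rose still more, with a ratio to *Slc40a1* of 5.83 to 6.66 in sh-NC and 12.1 to 12.4 in sh-*Etv5*. All of these ratios lay apart between the groups. They count transcripts, and neither the protein behind them nor the iron kept or released by the cells was measured, so retention and export could not be weighed against each other from these values.

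The wider set of iron genes held 84 other genes in 7 lists, of which 62 entered the test and 22 stayed below the filter. Of the tested genes, 23 (37.1%) were called higher, 19 (30.6%) lower and 20 neither, beside 33.3% and 41.0% of all tested genes, with a median log2 fold change of 0.05. The balance turned to 18 higher and 21 lower when the libraries were scaled to the same sum, and to 21 each without sh-*Etv5* replicate 1. Changes of at least 1 were found for 5 genes (8.06%), all of them higher, beside 6.23% of all tested genes upward. The upward shares of the set were therefore near the background, whereas its share called lower was below it. Of these 5, 4 belonged to the heme list. *Hmox1*, the inducible heme oxygenase that frees iron from heme, rose from 46.5 ± 0.299 to 263 ± 8.53 RPKM (n = 3 libraries per group, log2 fold change 2.48, limma adjusted p = 3.81e-13). *Blvrb*, a biliverdin reductase, rose from 10.5 ± 1.74 to 48.5 ± 2.64 RPKM (log2 fold change 2.11, adjusted p = 4.19e-09).

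*Abcg2*, which pumps porphyrins out of cells, rose from 1.27 ± 0.186 to 5.47 ± 0.305 RPKM, and *Alas1*, the first enzyme of heme synthesis, from 6.75 ± 0.155 to 17.2 ± 0.525 RPKM (log2 fold changes 1.51 and 1.23). In all, 10 of the 18 tested heme genes (55.6%) were called higher and 4 (22.2%) lower, beside 33.3% and 41.0% of all tested genes, and 1 of the 10, *Slc46a1*, had entered the test only through sh-*Etv5*. The constitutive *Hmox2* and *Blvra* were among the lower ones (log2 fold changes -0.20 and -0.24). The RPKM of *Hmox1* rose by a factor of 5.66, beside 6.33 for *Slc40a1*, and the ratio between them was 70.9 to 72.0 in sh-NC and 60.9 to 67.6 in sh-*Etv5*. Of 23 mitochondrial and iron-sulfur cluster genes, 8 (34.8%) were called higher and 7 (30.4%) lower. The share higher was near the 33.3% of all tested genes, and the share lower was below their 41.0%. *Lyrm4*, a partner of the cysteine desulfurase that supplies sulfur to the clusters, rose from 6.48 ± 0.921 to 15.5 ± 1.07 RPKM, and *Slc25a37*, mitoferrin 1, from 13.2 ± 0.902 to 25.2 ± 0.360 RPKM (log2 fold changes 1.14 and 0.88).

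Of the 5 tested genes that act around storage, 4 were called lower, where 41.0% of all tested genes were, and 1 higher. *Pcbp1*, a chaperone that delivers iron to ferritin, fell from 261 ± 4.54 to 169 ± 2.11 RPKM, and *Ncoa4*, the receptor that sends ferritin to the lysosome for breakdown, from 15.4 ± 0.201 to 10.1 ± 0.465 RPKM (log2 fold changes -0.63 and -0.57, adjusted p = 1.04e-08 and 1.16e-06). *Pcbp2* and *Glrx3* were lower by 0.17 and 0.15 on the log2 scale, and *Bola2* was higher by 0.34. In the uptake list, *Mcoln1*, a lysosomal channel that lets iron out, was higher (log2 fold change 0.60), *Lrp1*, a receptor that takes up heme bound to hemopexin, was lower (-0.52) and *Exoc6* was lower (-0.20), with *Trf* and *Snx3* not called.

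Among the ferroxidase and hormone genes that act with ferroportin, only *Cp* entered the test, and it was not called. *Cp*, for the ferroxidase ceruloplasmin, had 9.65 ± 0.229 RPKM in sh-NC and 10.4 ± 0.440 in sh-*Etv5* (log2 fold change 0.10, adjusted p = 0.0965). Its ranges in the groups did not overlap, all the same. *Heph*, for the related hephaestin, was listed at 0 in all libraries, and *Hamp*, for the hormone hepcidin that removes ferroportin from the membrane, was at most 0.0665 RPKM. The BMP receptor genes *Bmpr1a* and *Acvr1*, which act in the control of hepcidin, were both higher by 0.19. Of the genes that govern the iron regulatory proteins, *Fbxl5*, the subunit that marks IRP2 for destruction, was at 11.0 RPKM in both groups, while its ligase partners *Skp1a* and *Cul1* were lower by 0.33 and 0.28. The receptors named for lipocalin-2, *Slc22a17* and *Lrp2*, reached group means of 0.190 and 0.0731 RPKM at most, and *Bdh2*, which makes a mammalian siderophore, went from 0.891 ± 0.108 to 0.228 ± 0.0375 RPKM. These 3 were below the filter.

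**Figure D4:**
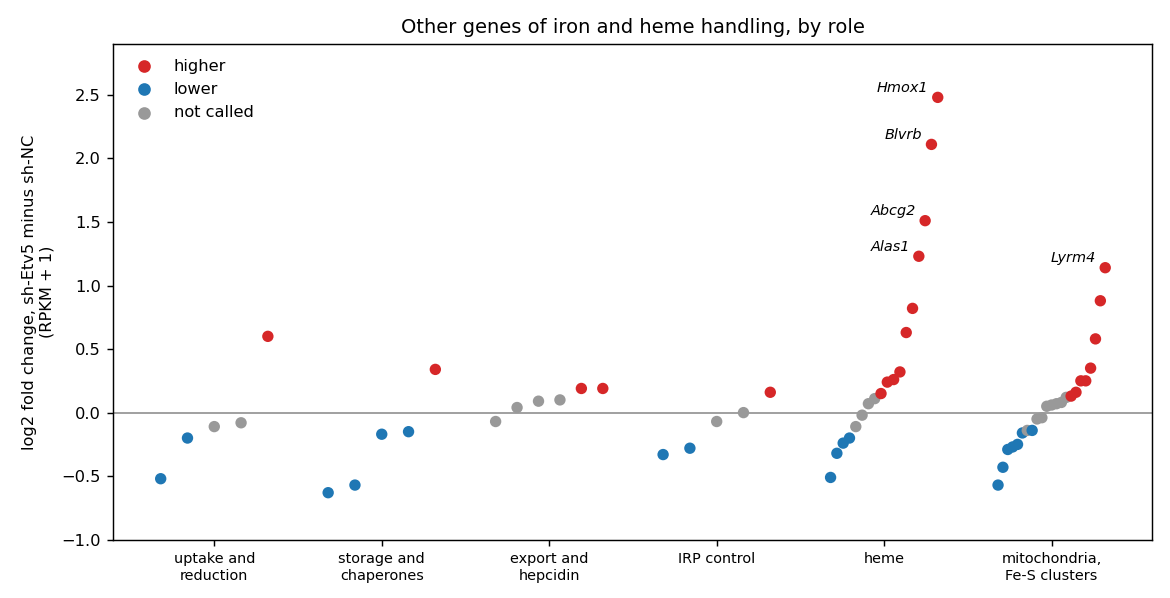
Log2 fold changes of the 62 tested genes of the wider iron lists, 1 point per gene, grouped by role and colored by call. Most points lie between -0.6 and 0.6, and the named points above 1 are 4 heme genes and *Lyrm4*.

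*Lcn2* is known to be switched on through NF-κB with its cofactor IκBζ and through C/EBP factors. Of 11 genes considered for this control, 10 were called higher and 1 lower, beside 33.3% and 41.0% of all tested genes. They were listed with earlier results of these data known, and the paper already names *Il6* and *Nfkbiz* as upregulated, so the count is no test. *Nfkbiz*, which encodes IκBζ, rose from 3.46 to 48.1 RPKM (log2 fold change 3.46, adjusted p = 5.21e-13), and *Cebpd* from 11.4 to 59.8 RPKM (2.31, adjusted p = 8.1e-10). *Cebpb* and *Cebpe* were higher by 0.85 and 1.12 and *Stat3* by 0.87, whereas the NF-κB subunits *Nfkb1* and *Rela* were higher by only 0.13 and 0.17. The cytokine genes *Tnf*, *Il6* and *Il1b* were higher by 2.69, 5.26 and 1.53, the latter pair having entered the test only through sh-*Etv5*. *Il17ra*, which encodes a receptor for the *Lcn2* inducer IL-17, was lower (-0.97).

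The 5 genes with values closest to those of *Lcn2* were *Csf3*, *Urah*, *Ccl7*, *Stfa3* and *Gm5483*, by Euclidean distance of log2(RPKM + 1) over the 6 libraries. The distances were 0.257, 0.428, 0.885, 1.14 and 1.77. Each was at or below 0.497 RPKM in every sh-NC library and so entered the test only through sh-*Etv5*. *Csf3* had 119.3, 119.4 and 123.2 RPKM in sh-*Etv5*. Low control values and a high level in sh-*Etv5* followed from the way these genes were chosen.

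Because lipocalin-2 is also a granule protein of neutrophils, markers of other cells were set beside its rise. *Ltf*, *Camp*, *Ngp*, *Mmp8* and *Mmp9*, which encode other granule proteins, stayed at or below 0.213 RPKM in every library. *Cybb*, an oxidase subunit of neutrophils and macrophages alike, went from 115 to 144 RPKM (log2 fold change 0.32, adjusted p = 1.28e-05). Of the 8 neutrophil markers, *Ly6g*, *S100a9*, *Elane*, *Cxcr2* and *Retnlg* were listed at 0 in all libraries and *Mpo* was at most 0.021 RPKM. *S100a8* went from 0.306 ± 0.184 to 17.1 ± 2.29 RPKM (log2 fold change 3.79, limma adjusted p = 2.17e-10), having entered the test only through sh-*Etv5*, and *Csf3r* from 0.906 to 1.96 RPKM (0.63, adjusted p = 3.99e-05). The summed level of the 8 was 1.01 to 1.51 RPKM in sh-NC and 17.6 to 21.8 in sh-*Etv5*, and without *S100a8* it was 0.808 to 1.02 and 1.76 to 2.08.

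Of 8 macrophage markers, 7 entered the test, with 3 higher, 3 lower and 1 not called, and *Mertk* stayed at or below 0.065 RPKM. Their sum was 4287 to 4396 RPKM in sh-NC and 3375 to 3491 in sh-*Etv5*. *Adgre1*, *Itgam* and *Cd14* were higher by 1.77, 1.88 and 0.25, *Csf1r*, *Cd68* and *Lyz2* were lower by 0.81, 0.57 and 0.47, and *Ptprc* was not called (log2 fold change 0.06). Erythroid markers, of interest because red cells carry iron, summed to 0.378 to 1.56 RPKM in sh-NC and 3.01 to 4.37 in sh-*Etv5*, with *Hbb-bs* and *Hbb-bt* at 0 in all libraries. The near-identical *Hba-a1* and *Hba-a2*, whose reads may not be told apart, had means of 0.258 and 0.257 RPKM in sh-NC and 1.78 and 1.76 in sh-*Etv5*. Both were called higher, by 1.16 and 1.15, and entered the test only through sh-*Etv5*. *Alas2*, *Epor* and *Klf1* stayed at or below 0.336 RPKM. The 7 fibroblast markers summed to 0.0112 to 0.0518 RPKM in sh-NC and 0.764 to 1.09 in sh-*Etv5*, and none entered the test. Most of this sum was *Lum*, listed at 0 in every sh-NC library and at 0.836, 0.625 and 0.931 RPKM in sh-*Etv5*. *Dcn* was listed at 0 in sh-NC and was at most 0.128 RPKM in sh-*Etv5*, and *Col1a1*, *Col1a2*, *Col3a1*, *Pdgfra* and *Thy1* were at most 0.0621 RPKM in any library. The part of these shifts in the rise of the iron genes was not tested, and in bulk RNA a change in the share of cells cannot be told apart from a change in RNA per cell.

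**Figure D5:**
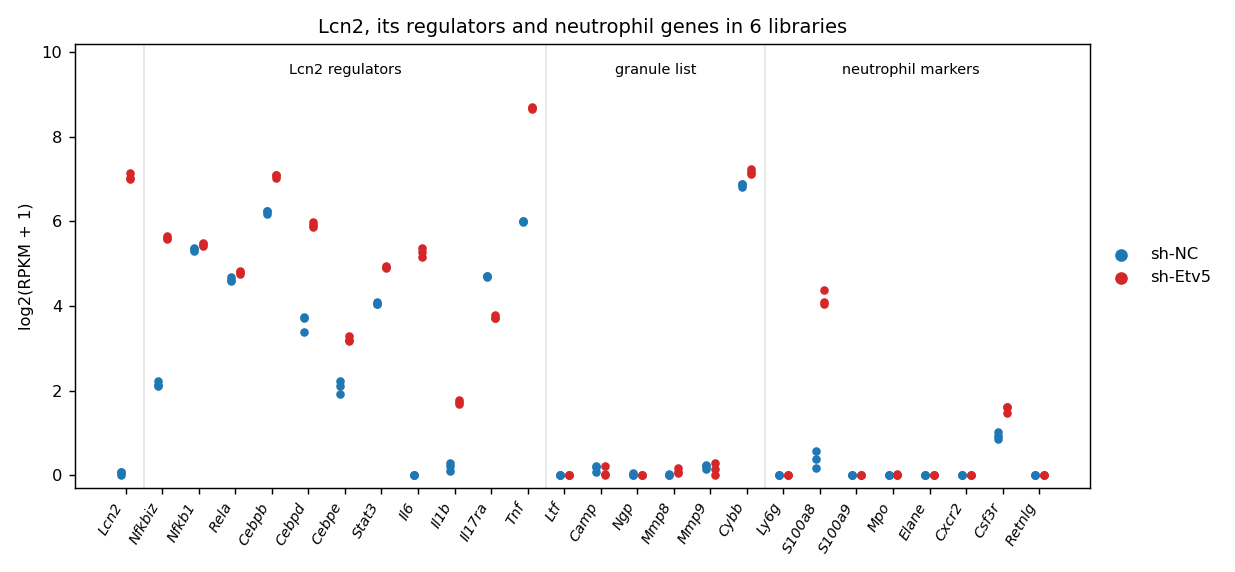
log2(RPKM + 1) of *Lcn2*, its listed regulators, the granule list and the neutrophil markers, with 1 point per library (blue sh-NC, red sh-*Etv5*). *Lcn2* and *Il6* go from near 0 to a high level, while the granule genes other than *Cybb* and all neutrophil markers but *S100a8* and *Csf3r* stay near 0 in both groups.

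The changes were read beside the IRE matches. The genes with a 5′ element, *Fth1*, *Ftl1* and *Slc40a1*, were all higher, by 1.03, 0.75 and 1.63 on the log2 scale. So were 7 of the 10 genes and 33.3% of all tested genes, and *Slc40a1* had entered the test only through sh-*Etv5*. Of the genes with a 3′ element, *Tfrc*, with its 4 matches, was not called and *Slc11a2* was higher by 1.49. *Lcn2* and *Slc11a1*, the genes with the largest rise, held none, nor did *Slc39a14*, which was higher by 0.24. Whether the elements had a part in these RNA levels was not tested. Promoter windows from 250 bases before to 50 bases after the start site (RefSeq, GRCm38.p6) were given for 7 of the 10 genes, in 12 windows, and *Slc40a1*, *Slc11a2* and *Slc39a14* were not searched. A match to the NF-κB consensus GGGRNNYYCC (R is A or G, Y is C or T) lay on either strand in 1 window each of *Ftl1* and *Steap3*. Of all 32851 windows, 8.46% held one. The ETS motif CCGGAAGT, the class of motif bound by *Etv5*, and the antioxidant response motif TGACNNNGC were in none of the 12 windows, against 3.89% and 12.4% of all windows. Sites outside the windows, or with other letters than these motifs, would not have been found.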

How the data were processed

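PolyA RNA of Raw264.7 cells was sequenced by the authors after TruSeq library preparation in 3 sh-NC and 3 sh-*Etv5* libraries. The authors deposited 1 table of RPKM values, 1 per gene symbol and library, without log transformation. Per the labels the genome build was mm10, whereas the aligner, the annotation and the use of strand are not given in the sources used here. Depth is unknown, so no counting interval was computed. RPKM divides by the mapped total, so changes in the most abundant genes, the ferritin chains included, can move the values of all others.

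Groups and replicate numbers came from the sample labels. The R package limma (version 3.58.1, R 4.3.3) was fitted to log2(RPKM + 1) of the genes that reached 1 RPKM in 3 or more of the 6 libraries, two-sided, without covariates and with an intensity trend. Benjamini-Hochberg adjusted p-values under 0.05 over all 10738 tested genes were called. With 3 libraries per group, the smallest exact permutation p is 0.1, and no such test was used. The limma step was tested on simulated data with normal noise, in which far fewer genes were changed than were called here. That test therefore does not vouch for the calls in these libraries. Tables and sequence searches used Python 3.11.15, pandas 2.3.3 and NumPy 2.4.6. Loci and untranslated regions came from GENCODE release M21, and 2 listed genes were matched by an older symbol.

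The 10 genes and all gene lists were chosen with earlier results of these data known. Named were the 10 genes, *Etv5*, the genes of the wider lists called with an absolute log2 fold change of at least 1 plus the 2 largest changes of each list, the regulator, granule and marker genes, and the 5 genes closest to *Lcn2*. *Aco1*, *Fbxl5*, *Bola2*, *Pcbp2*, *Glrx3*, *Exoc6*, *Trf*, *Snx3*, *Hmox2*, *Blvra*, *Cp*, *Heph*, *Hamp*, *Slc22a17*, *Slc46a1*, *Lrp2* and *Bdh2* were named after their values were seen. Of the genes first listed, 2 are not reported here. The alternatives were an absolute log2 fold change of at least 1, a filter on mean RPKM (minimum 5) or none, smaller pseudocounts (0.1 and 0.01), rescaling to the same sum or without the top 10 genes, quantile normalization, eBayes without trend, a replicate block and each library left out in turn.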

Additional observations from a re-analysis of the deposited data

How the results depend on the processing

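The log2 fold changes of *Lcn2* and *Etv5* kept their direction and stayed called under every alternative run. With an absolute log2 fold change of at least 1, 5 instead of 7 of the 10 genes were called higher and 0 instead of 2 lower, and in the wider list 5 were called higher and 0 lower. With a mean RPKM of at least 5, only 8 of the 10 genes entered the test, with 6 called higher and 1 lower, since *Steap3* and *Slc40a1* were left out. Rescaling all libraries to the same sum moved the median of all tested genes from -0.05 to -0.10 and turned the log2 fold change of *Tfrc* to -0.02 (limma adjusted p = 0.75), which was not called under either scaling. Over the other alternatives 7 of the 10 genes were called higher and 2 lower. The wider list had 18 higher and 21 lower with the same sum, and 19 to 23 higher and 16 to 21 lower with single libraries left out, with 21 each without sh-*Etv5* replicate 1. Leaving out each library in turn gave log2 fold changes of 6.97 to 7.04 for *Lcn2*, 1.62 to 1.65 for *Slc40a1* and 0.01 to 0.08 for *Tfrc*. Depth is unknown, so the counting error of low values such as those of *Lcn2* and *Slc40a1* in sh-NC could not be given.

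Deviations from the group means of libraries with the same replicate number correlated at 0.0739, -0.071 and -0.0352, so the numbers were not taken to pair the libraries. A fit with replicate block called 3539 genes higher and 4361 lower, 7 and 2 of the 10 genes and 23 and 19 of the wider list among them. The block changed no call of the 10 genes (adjusted p = 8.61e-11 for *Lcn2*, 0.00238 for *Steap3* and 0.234 for *Tfrc*).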
